A study of Mus musculus with 8 samples.

Results

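Voltage-gated sodium, calcium and potassium channels, the HCN pacemaker channels and the other potassium channels were examined as 1 group of genes in the heart ventricle of tumor-bearing mice. The genes were chosen by name (Kcn, Scn, Cacn and Hcn genes that code for protein) and selected on their counts, with at least 10 counts in every one of 8 mice. Of 137 family genes considered among 43346 genes in the table, 60 passed and are called members here, and 77 did not. The minimum took no account of which group a mouse was in. The counts closest to the limit were a smallest count of 10 for Kcnab1 and Kcnk7 and of 12 for Kcna6 and Kcnmb1 among members, and of 9 for Kcnj14 and 7 for Kcnj15, Kcnk5 and Kcnrg among the genes left out.

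The mice were male C57BL/6, injected at the age of 7 weeks under the skin of the left flank, and the hearts were taken 14 days later. The LLC1 group (n = 4) received 1000000 LLC1 cells, a transplantable mouse Lewis lung carcinoma line, and the PBS group (n = 4) received the saline vehicle without cells. The tumor is thus at a distance from the heart, and only 1 tumor line, 1 sex and 1 time point were measured. The replicate codes are those of the labels, such as LLC1 1-2 and PBS 1-1, and the comparison asks how channel transcripts of the ventricle differ with a tumor elsewhere in the body.

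Ion channels shape the cardiac action potential. Voltage-gated sodium channels carry the upstroke, voltage-gated calcium channels bring in the calcium that triggers contraction, and a sequence of potassium currents ends the action potential: the transient outward current (Kcnd2 and Kcnd3 with the accessory subunit Kcnip2), the ultrarapid and other delayed rectifiers (Kcna5, Kcnh2, Kcnq1) and the inward rectifiers (Kcnj2 and Kcnj12), which also hold the resting potential. Potassium channels sensitive to ATP (Kcnj11 or Kcnj8 with the sulfonylurea receptors Abcc8 or Abcc9) link membrane potential to cell energy, and in the mouse the transient outward current is a main current of repolarization.

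What potassium channel pores have in common is the selectivity filter, a stretch of 5 amino acids whose coding sequence was found in each of the 30 pore-forming potassium channel members. The coding stretches below, from GENCODE M21 transcripts on the mm10 mouse genome, are shown because they join the members with the clearest differences or comparisons among the results: the inward rectifiers Kcnj11, Kcnj8 and Kcnj2, the transient outward channel Kcna4, the sodium-activated channel Kcnt2 and the rapid delayed rectifier Kcnh2. Each is 45 bases read 5′ to 3′ on the coding strand within 1 exon, and capitals mark the 15 bases of the filter.
Kcnj11 (chr7:46099481-46099525, minus strand): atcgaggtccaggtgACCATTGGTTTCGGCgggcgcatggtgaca
Kcnj8 (chr6:142566433-142566477, minus strand): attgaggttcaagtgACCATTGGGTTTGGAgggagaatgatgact
Kcnj2 (chr11:111072192-111072236, plus strand): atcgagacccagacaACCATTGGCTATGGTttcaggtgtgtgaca
Kcna4 (chr2:107296480-107296524, plus strand): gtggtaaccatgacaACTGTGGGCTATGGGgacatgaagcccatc
Kcnt2 (chr1:140425263-140425307, plus strand): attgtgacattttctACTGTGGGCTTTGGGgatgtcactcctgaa
Kcnh2 (chr5:24325540-24325584, minus strand): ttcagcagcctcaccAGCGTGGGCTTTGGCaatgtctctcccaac
The fourth filter codon read phenylalanine in Kcnj11, Kcnj8, Kcnh2 and Kcnt2 and tyrosine in Kcnj2 and Kcna4. Kcnj11 and Kcnj8 had the same letter at 35 of the 45 positions, Kcnj11 and Kcnj2 at 28, and Kcnj2 and Kcnj8 at 25. Across whole transcripts no member shared a stretch of at least 150 bases at 97% identity with another member.

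Values are counts per 1000000 reads (CPM) after edgeR's TMM scaling, and a gene was called when its false discovery rate (FDR), adjusted over all 16111 genes tested, was under 0.05. The total count was 15342214 to 19747596 reads in LLC1 mice and 12480706 to 16192158 in PBS mice, so that 10 counts correspond to less than 1 CPM. PBS 1-1 stood apart, with the lowest total, the lowest TMM factor (0.935) and the largest median distance from the other mice of its group (0.161 on the log2 scale over all genes tested, against 0.0772 to 0.133 for the other 7). Over the 60 members, however, PBS 2-5 (0.173) and PBS 2-1 (0.155) lay farther from their group than PBS 1-1 (0.136). The tissue label was borne out by cardiomyocyte markers, which summed to 81141 to 82971 CPM in PBS mice and 91189 to 96675 CPM in LLC1 mice, with no overlap. Of the 6 markers 5 were above 0 in log2 fold change and 1, Myh6, was called, at 0.24 (FDR 0.0209). Of the atrial markers, Sln, Myl7 and Myl4 stayed at or below 2.945 CPM, whereas Nppa was at 109.7 to 336 CPM with overlapping groups (FDR 0.622). The skeletal muscle genes Myh1 and Actn3 stayed at or below 0.911 CPM, and Myh4, Isl1 of the sinus node and the neuronal Th and Snap25 were at 0. Because these are bulk samples, fewer cells of a type and less RNA per cell cannot be told apart.

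Few channel transcripts differed between the groups beyond the spread of the mice, and the differences that did were small. Of the 60 members, 4 were called higher in LLC1 mice (Kcnip2, Kcnj11, Kcnj12 and Cacna1s) and 2 were called lower (Kcne1 and Kcnt2). The 6 calls are 10.0% of the members, beside 8.73% of all genes tested, with 4.12% of all genes called higher and 4.61% called lower. In 10 members the 2 groups did not overlap, 5 with LLC1 above and 5 below, or 16.7% beside 17.2% of all genes tested. The log2 fold change (LLC1 over PBS) was above 0 in 29 members and below 0 in 31 (21 and 39 with total-count scaling), with a median of -0.01 for the members and -0.01 for all genes tested. The shares and the median lay near their background. At an unadjusted p under 0.05 there were 20 members, of which 14 were not called, 7 on each side of 0. The share of all genes tested under that p was not computed, so the 20 members cannot be read as an excess. Under total-count scaling in place of TMM, 1018 genes were called, only 225 of them higher, and of the members only Cacna1s remained among those called higher, beside 1.4% of all genes tested, and Kcne1 and Kcnt2 among those called lower, beside 4.92%.

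**Figure D1:**
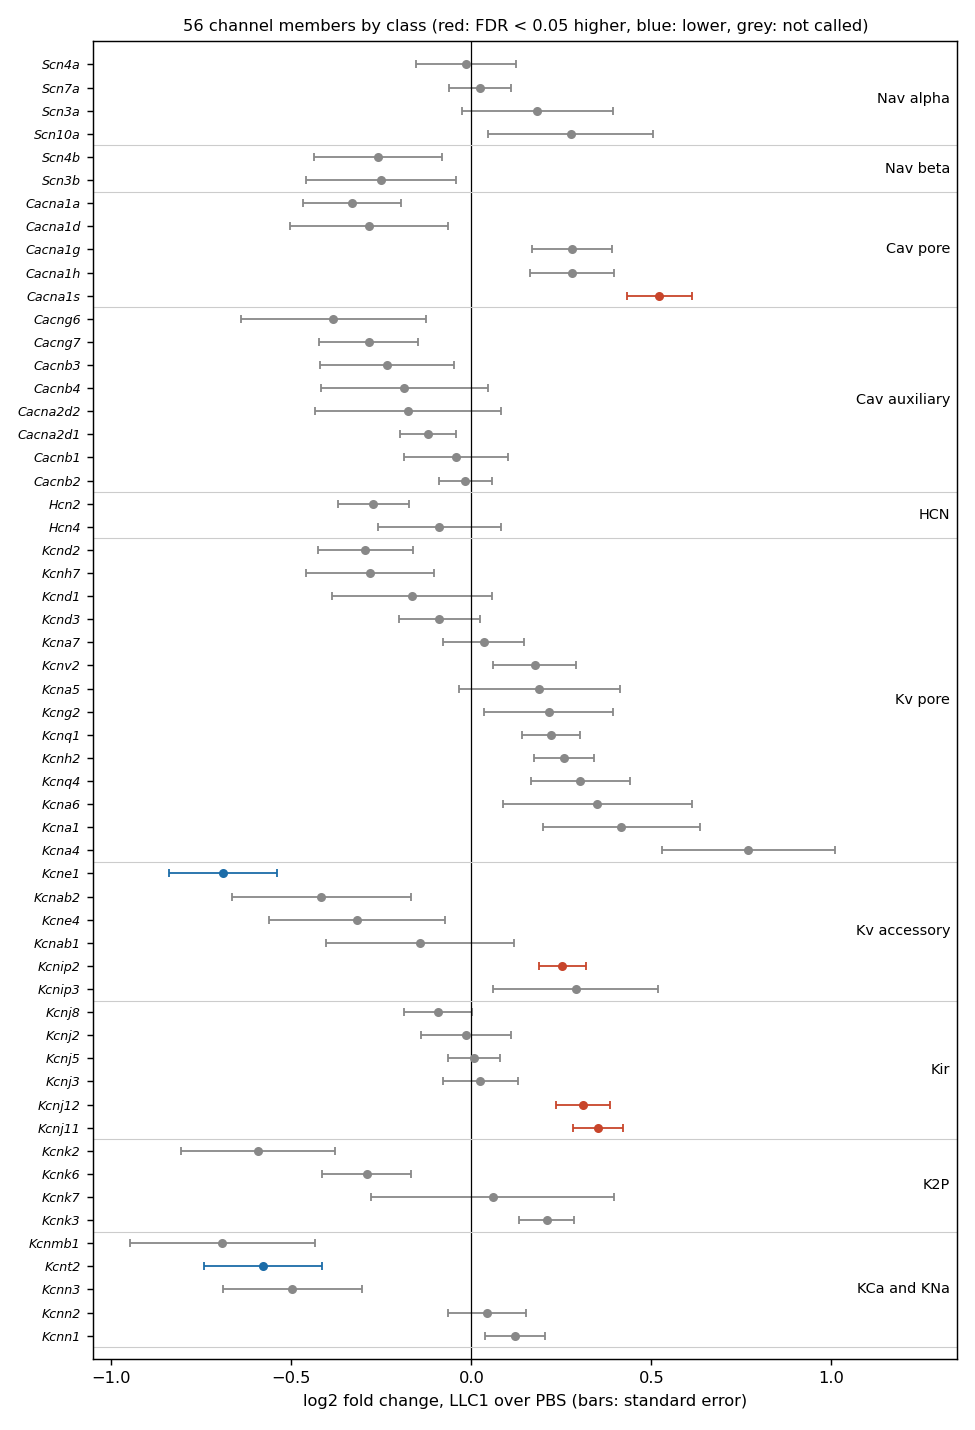
Log2 fold change of 56 of the 60 members (LLC1 over PBS, n = 4 each), grouped by channel class, with bars for the standard error. The 4 members called higher (red) lie between 0.25 and 0.52, the 2 called lower (blue) lie at -0.69 and -0.58, and all 8 members of the calcium channel auxiliary class lie below 0, where 2 of them are above it with gene length or GC content offsets.

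The 4 higher members, at log2 fold changes of 0.25 (Kcnip2) to 0.52 (Cacna1s), stood beside cardiomyocyte markers with a median log2 fold change of 0.18. When libraries were scaled to those markers, a scaling chosen after the data were seen that moves the median of all genes to -0.20, Cacna1s was the only member still called higher (log2 fold change 0.33, FDR 0.0226, beside 1.07% of all genes tested), whereas Kcnj11 was at 0.16 (FDR 0.114), Kcnj12 at 0.12 (FDR 0.28) and Kcnip2 at 0.06 (FDR 0.524). The rise of those 3 genes was called after TMM scaling, but neither relative to the summed cardiomyocyte markers nor with total-count scaling (FDR 0.0527 for Kcnj11, 0.0942 for Kcnj12 and 0.154 for Kcnip2). Myh6 weighed most in that sum, at 54333 CPM in LLC1 and 45869 CPM in PBS mice. Actc1 alone of these markers lay below 0, at -0.05. With the marker scaling 11 members were called lower, beside 26.4% of all genes tested, among them Kcne1 (-0.88, FDR 0.00219) and Kcnt2 (-0.77, FDR 0.00617).

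To compare levels between genes, CPM was divided by the gene length in kilobases given in the deposited table. A few channels made up most of the channel RNA of the ventricle: the 10 most abundant members held 71.7% of the summed level per kilobase. Kcnk3, a background two-pore potassium channel, led with 67.4 ± 5.92 (SD, n = 4) CPM per kb in PBS and 77.9 ± 5.38 in LLC1 mice. Kcnj11, the pore of the ATP-sensitive channel, followed at 55.0 ± 3.44 and 70.2 ± 4.21 CPM per kb. Kcnip2 was at 51.1 ± 3.06 and 60.8 ± 3.1 CPM per kb. In PBS mice the ranges of Kcnj11 and Kcnip2 overlapped, and Kcng2, a modifying subunit of other potassium channels, was at 26.0 ± 9.31 CPM per kb and Cacna2d1 at 28.7 ± 3.12. The length of Kcnj11 in the table was 1173 bases, the coding length of its only exon, and for genes with many exons the length joins all isoforms, so the order of levels depends on the annotation.

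**Figure D2:**
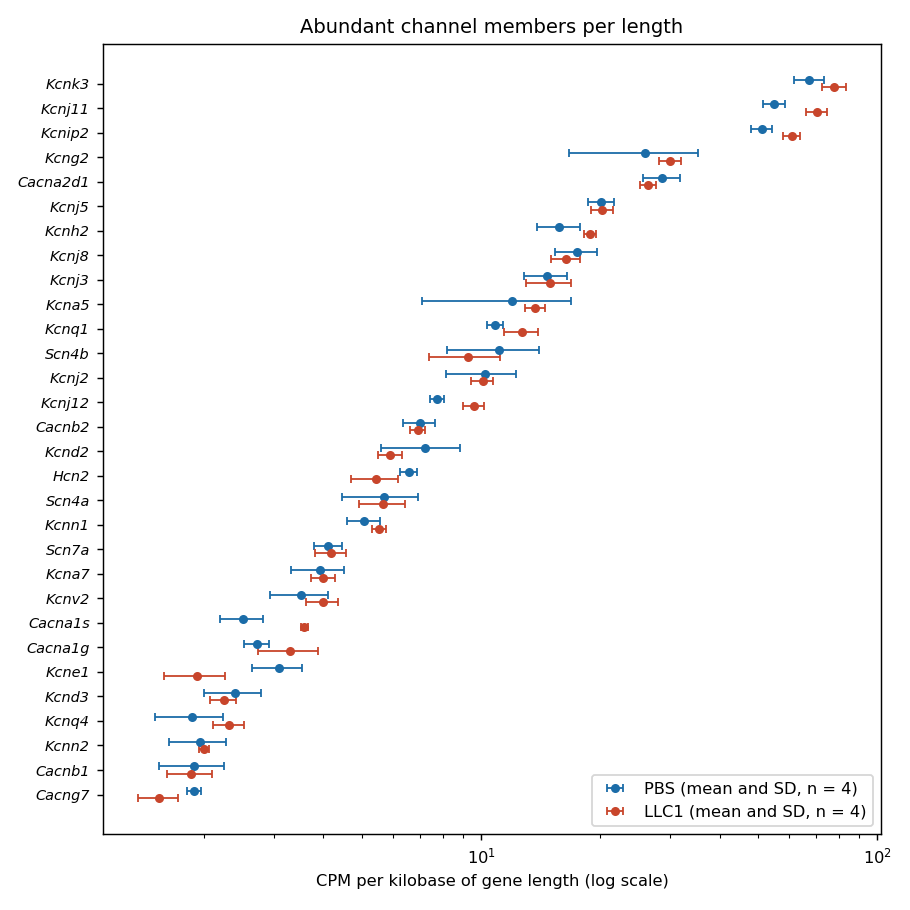
Level of 30 abundant members in CPM per kilobase of gene length on a log axis, with points for the group mean and bars for the SD (n = 4). Kcnk3, Kcnj11 and Kcnip2 lie above 50 CPM per kb in both groups, and Kcnj11 (70.2 in LLC1 against 55.0 in PBS) and Kcnip2 (60.8 against 51.1) are separated by more than their bars.

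Of the potassium channel classes, inward rectifiers made up 25.2% of the summed level per kilobase of all members in PBS mice, voltage-gated potassium channel pores 18.8%, two-pore channels 14.1%, accessory subunits of voltage-gated potassium channels 11.4% and channels opened by calcium or sodium 1.70%. Without division by length the shares were different, at 15.1%, 16.6%, 11.7%, 8.57% and 1.90% in the same order. The inward rectifier sum was 141 ± 4.58 CPM per kb in LLC1 against 125 ± 6.42 in PBS mice, and the calcium channel pore sum was 9.08 ± 0.715 against 7.28 ± 0.314. Of the 10 classes these 2 had every LLC1 mouse above every PBS mouse after TMM scaling. The sums were not computed with other scalings. Of single genes tested, 17.2% had groups without overlap in either direction. Most of the inward rectifier difference came from Kcnj11 (70.2 against 55.0 CPM per kb), and the median log2 fold change of that class was 0.02, with 4 of its 6 members above 0, or 2 of 6 with total-count or marker scaling. In the calcium channel pore class Cacna1s was at 3.58 against 2.51 CPM per kb, with 3 members of the class above 0 and 2 below. The pore sum of calcium channels leaves out 1 family gene.

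No sodium channel gene passed the test in either direction. The pore genes Scn4a of skeletal muscle, the sodium-sensing channel Scn7a, Scn10a and Scn3a lay between -0.02 and 0.28 in log2 fold change. Of the beta subunits, which modify gating and adhesion, Scn4b was at -0.26 ± 0.18 (SE) and Scn3b at -0.25 ± 0.21. Scn4b varied widely within both groups, from 37.0 to 55.6 CPM in LLC1 and from 40.5 to 70.9 CPM in PBS mice.

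Among the calcium channel pore genes, Cacna1s, the L-type channel best known as the voltage sensor of skeletal muscle, rose (ENSMUSG00000026407, chr1:136052750-136119822). Its level was 23.6, 23.9, 22.7 and 23.7 CPM in LLC1 mice and 19.4, 15.9, 15.5 and 14.8 CPM in PBS mice. The LLC1 mice were close to one another, PBS 1-1 was the highest control, and the groups did not overlap. The log2 fold change was 0.52 ± 0.09 (SE), or 1.43-fold, with an FDR of 0.00678 and an exact two-sided permutation p of 0.0286, the smallest that 70 arrangements of 4 against 4 can give. The call held under all 13 alternative settings with all mice and without each of the 8 mice in turn. The skeletal muscle genes Myh4, Myh1 and Actn3 summed to at most 0.911 CPM in any mouse, and their part in the Cacna1s level was not tested. Of the exon bases of Cacna1s, 19.98% lie under the antisense gene Gm37759, and since the use of strand in counting was not given in the sources used here, reads of both genes cannot be told apart. Other members with over 5% of their exon bases under a gene on the other strand were Kcna6 (39.6%), Kcnj3 (31.1%), Cacnb4 (15.99%), Kcnk2 (12.2%), Kcng2 (9.1%) and Kcnk3 (5.76%).

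The T-type channels, which open at low voltage and are prominent in pacemaker and fetal heart cells, were both above 0 without a call. Cacna1g was at 0.28 ± 0.11 (FDR 0.141) and Cacna1h at 0.28 ± 0.12 (FDR 0.157), each with overlapping groups. Cacna1g was called in 2 alternatives, with gene length offsets (0.37, FDR 0.0475) and with the leading digit of the mouse codes as a term. Cacna1a, a P/Q-type pore best known from neurons, was lower in every LLC1 mouse (3.75 to 4.96 CPM) than in any PBS mouse (4.98 to 5.75 CPM), at -0.33 ± 0.14, but did not pass the test (FDR 0.148). The L-type pore Cacna1d of the sinus node was low, at 2.36 ± 0.650 and 2.85 ± 0.435 CPM.

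The calcium channel auxiliary subunits, which carry the pores to the membrane and set their gating, all had log2 fold changes below 0, from -0.38 to -0.02 with a median of -0.18, yet none of the 8 passed the test, and 2 of the 8 were above 0 with gene length offsets or GC content offsets. The most abundant, Cacna2d1, was at 198 ± 8.86 CPM in LLC1 and 216 ± 23.4 in PBS mice (-0.12 ± 0.08, FDR 0.367), and it was at 0.01 with GC content offsets. Cacnb2, the main beta subunit of the heart, was at 91.5 ± 4.06 and 92.6 ± 8.62 CPM. Cacng7 was lower in every LLC1 mouse than in any PBS mouse (-0.29 ± 0.14, FDR 0.215). Cacng6 was called lower only without PBS 1-1, the control with the lowest value (1.201 CPM, against 2.66 to 3.30 in the other controls).

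Of the HCN channels, which carry the pacemaker current, Hcn2 is the form of the working ventricle and Hcn4 that of the sinus node. Hcn2 was at 15.4, 15.7, 17.7 and 20.5 CPM in LLC1 and 20.3, 20.5, 22.5 and 20.5 CPM in PBS mice. Of the LLC1 mice, 3 were below every control and LLC1 2-2 was level with them, giving -0.27 ± 0.10 (FDR 0.11). Without LLC1 2-2 the value was -0.37 (FDR 0.0442), and with GC content offsets it was -0.41 (FDR 0.0409). With each mouse left out in turn it ran from -0.37 to -0.22. Hcn4 was lower in level, at 6.19 ± 0.940 and 6.67 ± 1.47 CPM, and did not differ beyond its spread.

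The voltage-gated potassium channel pores had 11 of 16 members above 0 (9 with total-count scaling and 8 with cardiomyocyte marker scaling) and no call in either direction. Kcna4, which forms the slow transient outward current, had the highest log2 fold change of all members at a low level. It was at 2.31, 2.31, 1.75 and 1.66 CPM in LLC1 mice and 1.54, 1.26, 0.765 and 1.18 CPM in PBS mice, or 13 to 35 reads per library. The groups did not overlap, but with a log2 fold change of 0.77 ± 0.24 the FDR was 0.0678. It was called without PBS 1-1 (0.90, FDR 0.0357), with the likelihood ratio test and with GC content offsets (0.85, FDR 0.0453).

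The pores of the fast transient outward current lay below 0 without a call. Kcnd2 was at 30.4 ± 2.10 CPM in LLC1 and 37.2 ± 8.44 in PBS mice (-0.29 ± 0.13, FDR 0.188), and PBS 2-1 was the highest at 49.1 CPM. Kcnd3 was at -0.09 ± 0.11 (FDR 0.659). Their accessory subunit Kcnip2, which raises surface expression and speeds recovery of these channels, rose instead (ENSMUSG00000025221, chr19:45791839-45816061). Kcnip2 was at 205, 199.9, 219 and 222 CPM in LLC1 mice and 173, 169, 193 and 175 CPM in PBS mice. Every LLC1 mouse was above every control, and LLC1 1-3 and PBS 2-1 were nearest to each other. Its log2 fold change was 0.25 ± 0.07, with an FDR of 0.034 and an exact permutation p of 0.0286. The call was narrow: it was kept without PBS 1-1 (FDR 0.0373) and without PBS 2-1 (FDR 0.0308) and lost without any of the other 6 mice (FDR 0.0516 without PBS 2-5, 0.0594 without LLC1 1-2, 0.0606 without LLC1 1-3, 0.0996 without LLC1 2-2, 0.1005 without LLC1 1-5 and 0.121 without PBS 1-3). With a mouse left out the log2 fold change stayed at 0.22 to 0.29. The call was also lost with GC content offsets (0.20, FDR 0.0979).

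The rapid and slow delayed rectifier pores lay above 0 without a call. Kcnh2, the rapid delayed rectifier also known as ERG, was at 92.6, 86.8, 93.5 and 92.6 CPM in LLC1 mice and 69.2, 68.4, 79.3 and 88.5 CPM in PBS mice. Only PBS 2-5 reached into the LLC1 range, and the value was 0.26 ± 0.08 (FDR 0.0756), or 0.33 (FDR 0.0168) without that mouse. With all mice it was called by DESeq2 (FDR 0.044), with gene length offsets (FDR 0.0257) and with the leading digit of the mouse codes as a term (FDR 0.0224), but not in the other 10 alternatives. Kcnq1, the pore of the slow delayed rectifier, was at 55.2, 54.1, 53.7 and 44.2 CPM in LLC1 and 44.4, 45.6, 45.9 and 41.6 CPM in PBS mice. LLC1 2-2 lay among the controls, and the value was 0.22 ± 0.08 (FDR 0.107), or 0.29 (FDR 0.0385) without it. Kcnq1 shares 2.96% of its exon bases with the antisense RNA Kcnq1ot1.

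Kcng2, which is silent alone and joins other channel subunits, was decided by 1 control. It was at 82.8, 87.9, 95.7 and 92.4 CPM in LLC1 mice and 118, 71.4, 57.5 and 63.2 CPM in PBS mice, where the first value is PBS 1-1. With all mice the log2 fold change was 0.21 ± 0.18 (FDR 0.489), and without PBS 1-1 it was 0.49 (FDR 0.00274). With each mouse left out in turn it ran from 0.09 to 0.49. Kcna5, of the ultrarapid current, spread from 18.3 to 51.5 CPM in PBS mice and from 36.8 to 41.5 in LLC1 mice (0.19 ± 0.22, FDR 0.636). Kcnv2, another silent subunit, was at 0.18 ± 0.12 (FDR 0.373).

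Kcne1, the small subunit that slows Kcnq1 into the slow delayed rectifier, fell (ENSMUSG00000039639, chr16:92346001-92359468). It was at 7.47, 5.60, 6.51 and 4.98 CPM in LLC1 mice and 9.35, 10.3, 11.6 and 8.21 CPM in PBS mice. Every LLC1 mouse was below every control. The log2 fold change was -0.69 ± 0.15, or 0.620-fold, with an FDR of 0.0166 and an exact permutation p of 0.0286. It was called under all 13 alternatives with all mice, but lost the call without LLC1 1-3 (-0.65, FDR 0.0561) or PBS 1-3 (-0.67, FDR 0.0552). The remaining accessory genes, Kcne4, Kcnab1, Kcnab2 and Kcnip3, lay between -0.42 and 0.29 and did not pass the test.

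**Figure D3:**
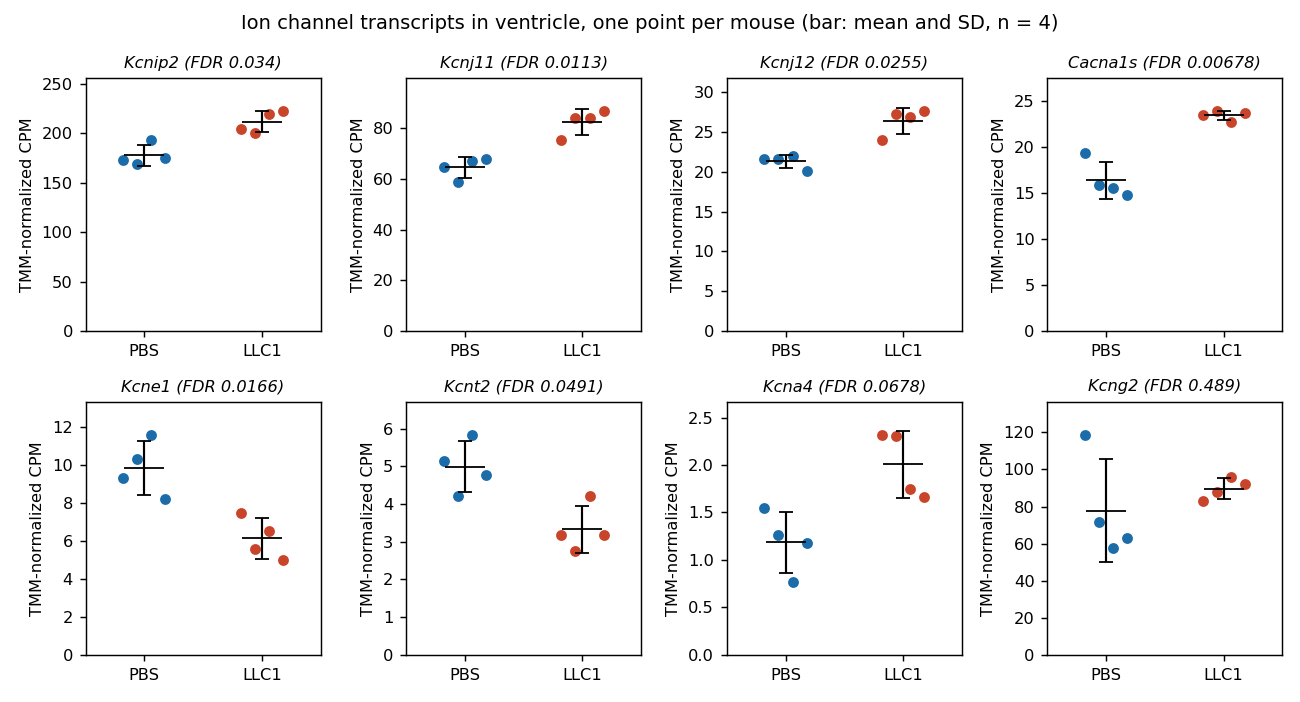
TMM-normalized CPM of 8 members in each mouse, with PBS in blue, LLC1 in red, and bars for the mean and SD (n = 4 each). Kcnip2, Kcnj11, Kcnj12, Cacna1s and Kcna4 have every LLC1 mouse above every PBS mouse and Kcne1 has every LLC1 mouse below, whereas Kcnt2 overlaps narrowly and Kcng2 has 1 PBS mouse (118 CPM) above all others.

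Among inward rectifiers, the ATP-sensitive pore Kcnj11 rose (ENSMUSG00000096146, chr7:46098725-46099897). It was at 75.2, 84.0, 83.8 and 86.5 CPM in LLC1 mice and 64.5, 58.8, 67.1 and 67.7 CPM in PBS mice. The lowest LLC1 mouse was above the highest control. The log2 fold change was 0.35 ± 0.07, or 1.28-fold, with an FDR of 0.0113 and an exact permutation p of 0.0286. It was called without each of the 8 mice in turn and in 11 of the 13 alternatives, all but total-count scaling (0.30, FDR 0.0527) and cardiomyocyte marker scaling.

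The related Kcnj8, an ATP-sensitive pore prominent in vascular smooth muscle, was not called. Kcnj8 was at 37.7, 37.3, 31.5 and 37.1 CPM in LLC1 and 33.8, 34.6, 41.7 and 42.6 CPM in PBS mice, with overlapping groups (-0.09 ± 0.09, FDR 0.575). The summed smooth muscle and pericyte markers were lower in LLC1 mice, at 846 to 907 CPM against 971 to 1139 CPM, with all 7 markers below 0 and none called. Rgs5 weighed most in the sum (576 against 664 CPM), whereas Tagln (-0.003) and Myh11 (-0.03) were almost level between the groups. The part of these markers in the Kcnj8 level was not tested. The sulfonylurea receptors that pair with these pores were at 76.9 ± 1.75 and 67.8 ± 3.63 CPM for Abcc8 (0.18 ± 0.06, FDR 0.0831, no overlap) and at 492 ± 34.9 and 499 ± 19.5 CPM for Abcc9 (-0.02 ± 0.07, FDR 0.885).

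Of the classical inward rectifiers, Kcnj12 rose (ENSMUSG00000042529, chr11:61022564-61071131). It was at 24.0, 27.2, 26.8 and 27.6 CPM in LLC1 mice and 21.5, 21.7, 21.9 and 20.1 CPM in PBS mice. The controls were close to one another and below every LLC1 mouse. Its log2 fold change was 0.31 ± 0.07, with an FDR of 0.0255 and an exact permutation p of 0.0286. The call was lost without LLC1 1-3 (FDR 0.0805), LLC1 1-5 (FDR 0.0715), LLC1 2-2 (FDR 0.0749) or PBS 1-3 (FDR 0.0708), where the log2 fold change stayed at 0.28 to 0.31, and with GC content offsets (FDR 0.0823) and total-count scaling (FDR 0.0942). Kcnj2, its partner in the same current, spread from 40.3 to 67.4 CPM in PBS and from 52.5 to 60.01 CPM in LLC1 mice (-0.02 ± 0.13, FDR 0.955). Kcnj3 and Kcnj5, the pores of the acetylcholine-gated channel, were at 0.02 ± 0.10 and 0.01 ± 0.07.

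The two-pore channels set the background potassium conductance. Kcnk3 was at 278, 289.8, 326 and 293 CPM in LLC1 and 287, 251, 256 and 233 CPM in PBS mice. PBS 1-1 was the only control within the LLC1 range, and the value was 0.21 ± 0.08 (FDR 0.111), or 0.27 (FDR 0.0244) without it. The stretch-sensitive Kcnk2 was at 1.62 ± 0.325 and 2.44 ± 0.472 CPM (-0.59 ± 0.21, FDR 0.108). Kcnk6 was lower in every LLC1 mouse than in any control (-0.29 ± 0.12, FDR 0.165), and Kcnk7, at about 1 CPM, was at 0.06 ± 0.34.

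Of the channels opened by calcium or sodium, Kcnt2, a sodium-activated potassium channel, was called lower at a low level (ENSMUSG00000052726, chr1:140246158-140612067). It was at 3.17, 2.77, 4.21 and 3.17 CPM in LLC1 mice and 5.15, 4.21, 5.83 and 4.78 CPM in PBS mice. The highest LLC1 mouse and the lowest control were level, at 4.212 and 4.207 CPM. Its log2 fold change was -0.58 ± 0.16 with an FDR of 0.0491 and an exact permutation p of 0.0571. The FDR was 0.0506 with upper-quartile scaling, and the call was kept in 8 of 13 alternatives and, of the 8 fits that leave out a mouse, only without LLC1 1-5 (FDR 0.0374). In the other 7 fits the log2 fold change ran from -0.66 (without PBS 1-3, FDR 0.065) to -0.50 (without LLC1 1-3, FDR 0.131, and without PBS 2-1, FDR 0.121), with FDR values of 0.112 without LLC1 1-2, 0.111 without LLC1 2-2, 0.0534 without PBS 1-1 and 0.0574 without PBS 2-5.

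Kcnmb1, the smooth muscle beta subunit of the large-conductance calcium-activated channel, had the lowest log2 fold change of all members. It was at 1.19, 0.790, 1.26 and 1.66 CPM in LLC1 and 1.46, 1.82, 2.65 and 2.01 CPM in PBS mice, with 1 LLC1 mouse above the lowest control (-0.69 ± 0.26, FDR 0.117). Its pore partner Kcnma1 had at most 3 counts in any mouse. Of the small-conductance channels, Kcnn3 was lower in every LLC1 mouse than in any control (-0.50 ± 0.19, FDR 0.131), while Kcnn1 (0.12 ± 0.08) and Kcnn2 (0.04 ± 0.11) had overlapping groups.

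Ratios between partner subunits, and between alternative pores or receptors of like channels, were computed per length in each mouse, as a description chosen after the values of the single genes were seen. The ratio of Kcnip2 to the sum of Kcnd2 and Kcnd3 was 7.33, 6.77, 7.31 and 8.62 in LLC1 mice and 5.00, 5.39, 4.70 and 6.57 in PBS mice. All LLC1 ratios were above all control ratios. The ratio of Kcne1 to Kcnq1 was 0.173, 0.133, 0.155 and 0.144 in LLC1 and 0.270, 0.289, 0.324 and 0.253 in PBS mice, and the LLC1 ratios were below all control ratios. The ratio of Kcnj11 to Kcnj8 was 4.31 ± 0.513 (SD, n = 4) in LLC1 and 3.17 ± 0.274 in PBS mice, again without overlap. Being ratios within a library, these do not depend on the scaling between libraries. Kcnj12 to Kcnj2 was 0.953 ± 0.0716 against 0.781 ± 0.145, and PBS 2-5 at 0.986 lay among the LLC1 mice. Kcnd2 to Kcnd3 (2.64 ± 0.144 against 3.06 ± 0.765) and Abcc9 to Abcc8 (4.20 ± 0.284 against 4.84 ± 0.247) overlapped as well.

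**Figure D4:**
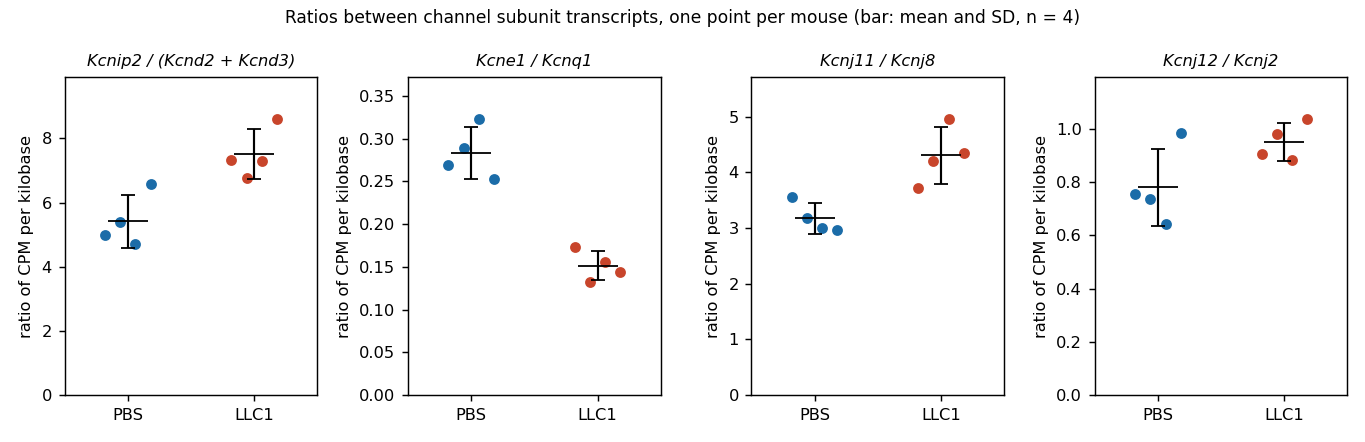
Ratios of CPM per kilobase between subunit transcripts in each mouse, with PBS in blue, LLC1 in red, and bars for the mean and SD (n = 4 each). The groups do not overlap for Kcnip2 over Kcnd2 plus Kcnd3 (7.51 against 5.41), Kcne1 over Kcnq1 (0.151 against 0.284) and Kcnj11 over Kcnj8 (4.31 against 3.17), and they overlap for Kcnj12 over Kcnj2.

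Rare members leaned below 0, while the lean of abundant members depended on the scaling. At a limit of 10 CPM, set after the values were seen, 20 of the 30 members above it had a log2 fold change above 0, with 4 called higher, 0 lower and a median of 0.04, but only 13 were above 0 with total-count scaling and 11 with cardiomyocyte marker scaling. Of the 30 members under 10 CPM, 21 were below 0, with 2 called lower, 0 higher and a median of -0.21, and 20 to 24 were below 0 under the 13 alternatives with all mice. Among all genes with the same count minimum, 51.7% of 9345 were above 0 over the limit (median 0.01) and 41.6% of 5436 under it (median -0.06), so that the lean is in the same direction as in the transcriptome at large.

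**Figure D5:**
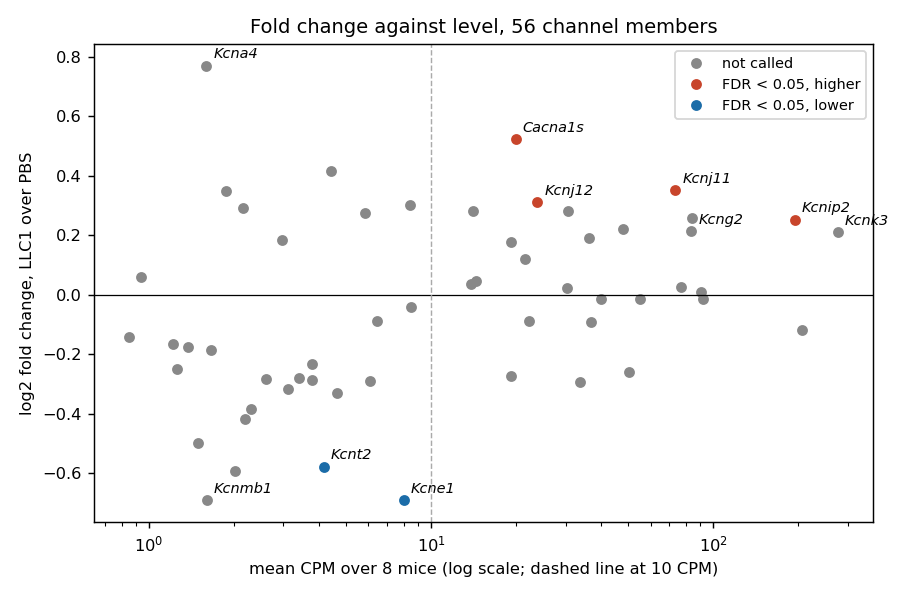
Log2 fold change of 56 of the 60 members (LLC1 over PBS) against the mean CPM over 8 mice on a log axis, with a dashed line at 10 CPM. The 4 members called higher (red) lie right of the line and the 2 called lower (blue) left of it, and Kcna4 (0.77) and Kcnmb1 (-0.69) mark the range at low level.

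The codes of the mice begin with 1 or 2, a digit whose meaning the labels do not give and which divides the mice into 3 LLC1 against 2 PBS and 1 LLC1 against 2 PBS. Within code 1 and within code 2 all 6 called members kept their direction. The log2 ratio of mean CPM was 0.41 and 0.64 for Cacna1s, 0.39 and 0.36 for Kcnj11, 0.28 and 0.27 for Kcnip2, 0.27 and 0.39 for Kcnj12, -0.59 and -0.99 for Kcne1, and -0.47 and -0.74 for Kcnt2, with no test since code 2 holds 1 LLC1 mouse. With the digit as a covariate over all 8 mice, Kcnt2 was not called (FDR 0.0644), whereas Kcnh2 (FDR 0.0224) and Cacna1g (FDR 0.0292) were called higher.

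RefSeq promoter sequences on GRCm38.p6 (300 bases around a transcription start that RefSeq gives) were used for 40 of the 60 members, and Kcng2 and Kcnn2 were not looked up. Those of the 3 members called higher that had an entry are shown, with capitals for GGGCGG, the GC box core, and for its reverse complement. The window of Kcnj12 lies inside the span given for that gene above, not at its outer end. There was no entry for Kcnj11 or Kcne1.
Kcnip2 (chr19:45816014-45816313, minus strand): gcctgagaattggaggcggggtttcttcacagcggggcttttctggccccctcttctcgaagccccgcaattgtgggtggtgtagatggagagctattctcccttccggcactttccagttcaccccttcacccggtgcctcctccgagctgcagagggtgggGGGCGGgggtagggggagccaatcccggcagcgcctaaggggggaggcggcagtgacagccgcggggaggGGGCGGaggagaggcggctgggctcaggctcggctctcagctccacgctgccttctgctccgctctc
Kcnj12 (chr11:61065554-61065853, plus strand): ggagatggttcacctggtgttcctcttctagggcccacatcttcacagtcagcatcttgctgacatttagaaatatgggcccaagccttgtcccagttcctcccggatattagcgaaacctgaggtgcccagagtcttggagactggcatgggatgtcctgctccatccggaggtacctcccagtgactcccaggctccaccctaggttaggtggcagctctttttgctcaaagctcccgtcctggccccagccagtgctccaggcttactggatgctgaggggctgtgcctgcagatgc
Cacna1s (chr1:136052561-136052860, plus strand): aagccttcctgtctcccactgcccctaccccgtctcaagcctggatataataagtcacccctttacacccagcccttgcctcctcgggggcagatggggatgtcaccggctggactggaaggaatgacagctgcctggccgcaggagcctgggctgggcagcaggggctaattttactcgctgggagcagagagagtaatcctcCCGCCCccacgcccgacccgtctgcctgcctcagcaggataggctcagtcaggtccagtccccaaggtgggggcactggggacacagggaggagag
On either strand GGGCGG occurred in the Kcnip2 promoter at 2 places, in that of Cacna1s at 1 place and in that of Kcnj12 at 0, and it occurred in 35.6% of 32817 promoters of the same length. TATAAA occurred in none of the 3, against 13.6% of all promoters. The promoters held 18, 9 and 4 CpG dinucleotides for Kcnip2, Cacna1s and Kcnj12, beside a median of 7. These matches describe the letters of the window and show no binding.

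Genes outside the family that anchor, modify or work beside the channels were read from a list of 27, of which 23 were tested. Of these, 3 were higher, 0 lower and 20 not called by edgeR, beside 4.12% of all genes tested called higher and 4.61% called lower, and 0 were called higher with total-count or cardiomyocyte marker scaling. Fxyd1, the regulator phospholemman of the sodium pump, was at 298, 278, 292 and 266 CPM in LLC1 and 228, 227, 221 and 243 CPM in PBS mice (0.30 ± 0.06, FDR 0.0128). Nedd4l, a ubiquitin ligase that removes channels from the membrane, was at 37.6, 37.2, 38.1 and 37.7 CPM in LLC1 and 31.3, 32.8, 32.1 and 33.1 CPM in PBS mice (0.22 ± 0.06, FDR 0.0423). In both genes every LLC1 mouse was above every control, as in Abcc8 and Gpd1l. The sodium pump subunit Atp1b1 and the connexins Gja1 and Gja5 were not called, and Dpp6, Dpp10, Fgf12 and Rem2 were too low to be tested.

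Family genes under the count minimum were not members, though 11 of the 77 were tested and 15 had no count in any mouse. Kcnj15, an inward rectifier best known from epithelia, was left out through a count of 7 in LLC1 1-2, the group in which it was low. It was at 0.463, 0.988, 1.31 and 1.16 CPM in LLC1 and 2.57, 1.963, 2.83 and 2.66 CPM in PBS mice. Every LLC1 mouse was below every control, and the gene was called lower (-1.32 ± 0.26, FDR 0.0119), so the minimum removed a gene that fell. With all family genes that edgeR's filter keeps, 4 were called higher and 3 lower of 71, beside 8.73% of all genes tested called in either direction.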

How the data were processed

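Ventricular RNA of 8 mice was sequenced on an Illumina HiSeq platform (TruSeq RNA Library Prep Kit v2, 150-base paired reads). The authors deposited 1 table of raw gene counts (1 column per mouse, with gene lengths). The submitters' processing notes name CASAVA, STAR, featureCounts and the mm10 build. Versions, annotation and use of strand are not given in the sources used here.

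From these counts, edgeR 4.0.16 (filterByExpr, TMM factors, quasi-likelihood F-test, no covariate) compared LLC1 with PBS over 16111 genes, with Benjamini-Hochberg adjustment over all of them. The common biological coefficient of variation was 0.109. The script was tested on simulated data. Single genes were also compared by an exact two-sided permutation test over 70 arrangements, on log2(CPM + 0.1). Alternatives were DESeq2 1.42.0, limma-voom 3.58.1, other scalings, filters, offsets and each mouse left out.

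Members and lists were chosen with earlier results of these data known. Named were all called members, the highest and lowest log2 fold changes, textbook cardiac channels, the 10 most abundant members and those nearest the count limit, and all others were named after their values were seen. The scaling to cardiomyocyte markers was added after the data were seen. Some genes named by this rule or by the lists are not reported here.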

Additional observations from a re-analysis of the deposited data

Results flagged for a closer look

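In 84 tests of 4 mice each (the named channel genes and each subunit ratio in each group), 8 had 1 mouse farther from the other 3 than Dixon's 95% limit allows. Chance gives about 1 in 20 such flags. In LLC1 mice Kcnh2 was lowest in LLC1 1-3 at 86.8 CPM (the others 92.6 to 93.5), Kcnj8 was lowest in LLC1 1-5 at 31.5 CPM (37.1 to 37.7), Kcnq1 was lowest in LLC1 2-2 at 44.2 CPM (53.7 to 55.2), and the Kcnd2 to Kcnd3 ratio was highest in LLC1 1-2 at 2.85 (2.54 to 2.58). In PBS mice Hcn2 was highest in PBS 2-1 at 22.5 CPM (20.3 to 20.5), Kcnk7 was highest in PBS 1-1 at 1.54 CPM (0.647 to 0.771), Kcnv2 was highest in PBS 2-5 at 22.4 CPM (16.2 to 17.0), and the Abcc9 to Abcc8 ratio was lowest in PBS 2-5 at 4.47 (4.95 to 4.99). None of the 8 is a called gene, and no mouse accounts for more than 2 of them. Kcng2 in PBS 1-1 (118 CPM against 57.5 to 71.4) did not pass the limit.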

How the results depend on the processing

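Of the 6 calls, 4 were lost without at least 1 of the mice, which also leaves fewer samples. Of the members only Cacna1s was called in every fit run. Where no cause is named for a change below, the cause was not tested. The number of members called higher, 4, was 1 with cardiomyocyte marker scaling and 1 with total-count scaling, and ran from 2 to 7 with a mouse left out (2 without LLC1 1-3, LLC1 1-5 or PBS 1-3, 7 without PBS 1-1, where Kcna4, Kcng2 and Kcnk3 joined). The number called lower, 2, was 11 with marker scaling and 1 with the first number as covariate, gene length offsets, no filter or upper-quartile scaling, and ran from 0 to 2 with a mouse left out (0 without LLC1 1-3 or PBS 1-3). The calls over all genes moved too, from 1406 to 4433 with marker scaling (172 higher), 542 without PBS 1-3 and 1949 without PBS 1-1. The members' median was -0.20 with marker scaling, 0.043 with length offsets and -0.067 with total-count scaling, and -0.039 to 0.023 with a mouse left out.

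Partners called higher, 3, were 0 with marker or total-count scaling, 5 with length offsets and 1 to 3 with a mouse left out. Partners called lower, 0, were 3 with marker scaling and 0 with a mouse left out. Over all marker lists 1 gene was called higher, against 2 with DESeq2, length offsets, limma-voom or robust dispersions, 0 with GC offsets, the likelihood ratio test, marker scaling or total-count scaling, and 0 to 3 with a mouse left out. Of these markers 7 were called lower, against 18 with marker scaling and 5 to 13 with a mouse left out.

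Among 752 values of 36 named genes under the alternatives, 661 kept direction and side of the threshold, 32 lost the call, 20 gained it and 39 changed sign, the last in 12 genes of which the largest was 0.19 in the comparison as reported. With GC offsets, Cacna2d1 was at 0.011, Cacnb2 0.12, Kcnj2 0.11 and Kcnk7 -0.024. With marker scaling, Kcnj3 was at -0.17, Kcnj5 -0.18, Kcnk7 -0.13 and Kcnv2 -0.013. With length offsets, Cacnb2 was at 0.073, Kcnd3 0.00052 and Kcnj2 0.048. With total-count scaling, Kcnj3 was at -0.024 and Kcnj5 -0.046. With the covariate, Kcnj3 was at -0.016, and Kcnj2 was at 0.0079 by limma-voom. With a mouse left out, Cacnb2 ran from -0.063 to 0.046, Hcn4 from -0.22 to 0.030, Kcna5 from -0.029 to 0.47, Kcnab1 from -0.25 to 0.028, Kcnd3 from -0.18 to 0.013, Kcnj2 from -0.15 to 0.089, Kcnj3 from -0.047 to 0.10, Kcnj5 from -0.038 to 0.044, Kcnk7 from -0.090 to 0.36 and Kcnrg from -0.21 to 0.058. No paired analysis was possible because the groups share only 1 replicate code.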

Other observations

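Transcripts of dividing cells, which belong to no channel comparison, stood far below the controls in every LLC1 mouse. Mki67 was at 1.79, 1.05, 2.63 and 1.86 CPM in LLC1 mice and 7.89, 18.1, 7.53 and 24.1 CPM in PBS mice, with a log2 fold change of -2.96 (FDR 0.00177 by edgeR). Of the non-muscle markers, Kdr of endothelium (-0.61, FDR 0.00132), Lum (-0.62, FDR 0.00105) and Col1a1 (-0.60, FDR 0.0456) of fibroblasts and Mrc1 of macrophages (-0.42, FDR 0.0301) were called lower. The 5 endothelial and the 4 tested macrophage markers all had log2 fold changes below 0. The fibroblast list was mixed, with 4 of 5 markers below 0, among them Pdgfra at -0.07 (FDR 0.654), and the most abundant, Dcn, at 0.07 (FDR 0.612).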
